A study of Xenopus laevis with 74 samples.

Results

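The foxa genes foxa1, foxa2 and foxa4 were followed in animal cap explants of Xenopus laevis on their way to endoderm, ventral mesoderm, neural and epidermal states. The members were every entry whose symbol, without the L or S that marks the homeolog, is one of these names. They are 3 of the 34788 symbols of the count table once L and S are summed, or 5 of its 45656 entries. foxa1 and foxa4 are listed with an L and an S homeolog, whereas foxa2 is listed with an L homeolog only. X. laevis carries 2 subgenomes, so many of its genes exist as such a pair of homeologs.

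Animal caps of wild-type embryos were dissected at stage 8.5. The endoderm lineage received 160 ng/uL activin, the ventral mesoderm lineage 20 ng/uL BMP4/7 and the neural lineage 100 ng/uL noggin, a BMP antagonist, while the epidermal lineage was left untreated. The doses are those of the sample labels, and the study's methods give them in another unit. Every lineage was sampled at 6 stages from blastula to early neurula, namely 9, 10 and 10.5 and then 11, 12 and 13, with 3 libraries a group and 5 in ventral mesoderm at stage 11, 74 in all. The study counts stage 9 as time zero and started the treatments then. Libraries of stage 9 thus mark the start of exposure. A library is a pool of explants, so fewer cells that express a gene and less RNA of it per cell cannot be told apart.

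FoxA proteins are forkhead transcription factors that can bind their sites in closed chromatin, for which they are called pioneer factors. In vertebrate embryos they act in the specification of endoderm and later in liver, lung and gut. In Xenopus, foxa4 is best known from the Spemann organizer, the notochord and the floor plate, foxa2 from endoderm, notochord and floor plate, and foxa1 from endoderm and from the small secretory cells of the larval epidermis. Activin acts through the receptors and Smads of the nodal pathway, the pathway that sets up mesendoderm in the embryo.

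Between 11938338 and 23215739 reads a library were counted on genes. Marker genes of each lineage were summed at stage 13. The summed level of 8 endoderm markers was 9717 to 11663 CPM (counts scaled to a common library total) in endoderm, 224 to 1130 CPM in ventral mesoderm, 383 to 1650 CPM in neural and 96.6 to 174 CPM in epidermal explants. The 9 ventral and pan-mesoderm markers were highest in ventral mesoderm (2134 to 4348 CPM) and the 8 neural markers in neural explants (1290 to 3751 CPM), with no overlap with another lineage. The 7 epidermal markers did not set ventral mesoderm apart from epidermal explants, since they summed to 7135 to 12784 CPM in ventral mesoderm and 10199 to 21270 CPM in epidermal explants, against 305 to 609 CPM in endoderm and 2718 to 3716 CPM in neural explants. The 7 dorsal mesoderm and muscle markers, not all of them higher in endoderm, summed to 577 to 2547 CPM there against 13.9 to 83.7 CPM in epidermal explants. Ventral mesoderm was sequenced on a HiSeq and the other lineages on a NextSeq, and an effect of the instrument cannot be told apart from one of that lineage. Per the methods, neural explants were in a low calcium magnesium medium and endoderm and ventral mesoderm explants in a Ringer's solution. An effect of the neural medium cannot be told apart from one of noggin.

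The foxa genes reached their highest levels in the endoderm lineage, and the 3 members followed different courses there. foxa4 was highest and was nearest its own peak at stages 10 and 10.5. foxa1 was up by stage 10 too but rose more slowly through all stages, and foxa2 came last. From stage 10 for foxa1 and foxa4, and from stage 10.5 for foxa2, no library of another lineage reached the lowest endoderm library of the same stage.

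**Figure D1:**
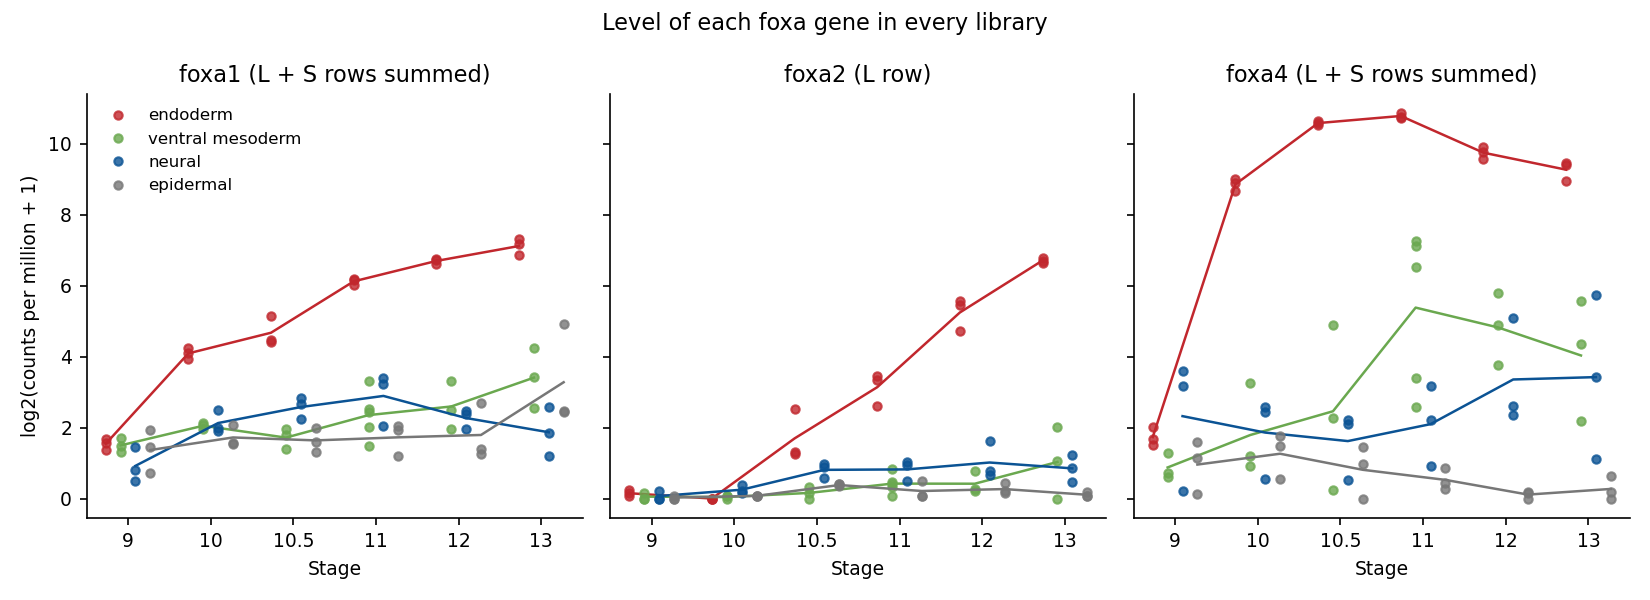
Level of foxa1, foxa2 and foxa4 in every library, as log2(CPM + 1), by stage and lineage. Points are libraries and lines join the group means of this scale. Endoderm libraries lie above all others from stage 10 for foxa1 and foxa4 and from stage 10.5 for foxa2, and the ventral mesoderm and neural libraries of foxa4 are spread widely.

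foxa4, the organizer and notochord member, was low at stage 9 in endoderm explants, with 1.82, 2.23 and 3.03 CPM. It stood at 406, 508 and 476 CPM at stage 10 and at 1588, 1526 and 1469 CPM at stage 10.5. These libraries differed little from each other, and no library of the other lineages was above 8.47 CPM at stage 10 or 28.4 CPM at stage 10.5. The step from stage 9 to stage 10 was 7.59 on the log2 scale (standard error 0.20, edgeR adjusted p = 2.2e-06), and the next step added 1.83 (standard error 0.11, edgeR adjusted p = 0.00014). The latter was lost in a single fit of all libraries, with adjusted p values up to 0.35 over all alternatives (edgeR, DESeq2 or limma).

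foxa4 reached its highest endoderm level at stage 11, at 1733, 1868 and 1671 CPM, and was lower afterwards. It was at 955, 863 and 762 CPM at stage 12 and at 672, 493 and 699 CPM at stage 13, with no overlap between stage 11 and either later stage. The step from stage 11 to stage 12 fell by 0.89 on the log2 scale (standard error 0.17, edgeR adjusted p = 0.019). That call was lost (edgeR adjusted p up to 0.062) without endoderm replicate 1 or 2 of stage 11, or replicate 2 or 3 of stage 12, and held with replicate numbers as a block (edgeR adjusted p = 6.2e-07). It was also lost in the single fit of all libraries, with adjusted p values up to 0.75 over all alternatives (edgeR, DESeq2 or limma). The step to stage 13, a log2 fold change of -0.37, did not pass (edgeR adjusted p = 0.20). Summed dorsal mesoderm and muscle markers were at 2547, 577 and 1260 CPM in the same 3 stage 13 libraries. At the earlier stages these markers were at 125 to 141 CPM (stage 9), 544 to 679 CPM (stage 10), 1099 to 1453 CPM (stage 10.5), 2123 to 2663 CPM (stage 11) and 2992 to 3540 CPM (stage 12) in endoderm explants. Their part in the foxa4 levels was not tested.

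foxa1 was at 1.93, 2.23 and 1.60 CPM in endoderm explants at stage 9, within the range of the other lineages. It was at 14.3, 16.1 and 17.8 CPM at stage 10, at 21.3, 20.1 and 34.2 CPM at stage 10.5 and at 70.5, 71.5 and 63.7 CPM at stage 11. It went on to 96.8, 107 and 103.5 CPM at stage 12 and 115, 158 and 144 CPM at stage 13, so that no library of a stage was below one of the stage before. The step from stage 9 to stage 10 was 3.03 on the log2 scale (standard error 0.26, edgeR adjusted p = 0.00092).

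The later steps of foxa1 were smaller. The step to stage 11 was 1.58 (standard error 0.22, edgeR adjusted p = 0.010) and was lost without endoderm replicate 2 of stage 10.5 (edgeR adjusted p = 0.055) and in a single fit of all libraries (edgeR adjusted p = 0.072). The step to stage 12 was 0.71 (standard error 0.15, edgeR adjusted p = 0.028), and it was lost whichever of the 6 libraries was left out, with edgeR adjusted p values of 0.052 to 0.10. It was also lost in the single fit, with adjusted p values up to 0.53 over all alternatives (edgeR, DESeq2 or limma). The steps to stage 10.5 (0.75) and to stage 13 (0.55) did not pass, at edgeR adjusted p values of 0.066 and 0.085. With replicate numbers as a block, all 5 steps of foxa1 passed, the last of them at an edgeR adjusted p of 0.00039.

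foxa2, the member most used as a mark of definitive endoderm, was counted 0 times in each of the 3 endoderm libraries at stage 10, while foxa4 was at 406 CPM or more in each of them. Its counts were 23, 24 and 79 at stage 10.5, then 86, 182 and 144 at stage 11, then 422, 819 and 685 at stage 12, and 1556, 1699 and 1406 at stage 13. From stage 10.5 on, each stage was above the stage before without overlap. Against a floor of 3 counts over the stage 10 group, foxa2 was at least 42.3-fold higher at stage 10.5 (edgeR adjusted p = 0.0079 for the step).

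The steps of foxa2 to stage 12 and stage 13 were log2 fold changes of 2.37 (standard error 0.33, edgeR adjusted p = 0.0068) and 1.55 (standard error 0.22, edgeR adjusted p = 0.0081). The step to stage 13 was lost in the single fit, with adjusted p values up to 0.18 over all alternatives (edgeR, DESeq2 or limma). The step to stage 11 (1.81, standard error 0.52) did not pass, at an edgeR adjusted p of 0.074, and passed with replicate numbers as a block (edgeR adjusted p = 0.0095) or without endoderm replicate 3 of stage 10.5 (edgeR adjusted p = 0.032). That library, with 79 counts of foxa2, was the highest of its group. At stage 13 foxa2 stood at 98.4 to 110 CPM.

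Of the 15 steps between successive stages in endoderm (3 genes and 5 steps), 9 passed, 8 of them upward, against 7.19, 12.7, 8.71, 8.06 and 7.43% of all 19684 genes tested that passed in either direction at the steps to stages 10, 10.5, 11, 12 and 13. With the replicate block 13 steps passed, 12 of them upward, the additional ones being the steps of foxa1 to stages 10.5 and 13, of foxa2 to stage 11 and of foxa4 to stage 11 (log2 fold change 0.32, edgeR adjusted p = 0.011). Replicates of a lineage deviated together from stage to stage. The shares over all genes are those without the block, and none were computed with it.

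**Figure D2:**
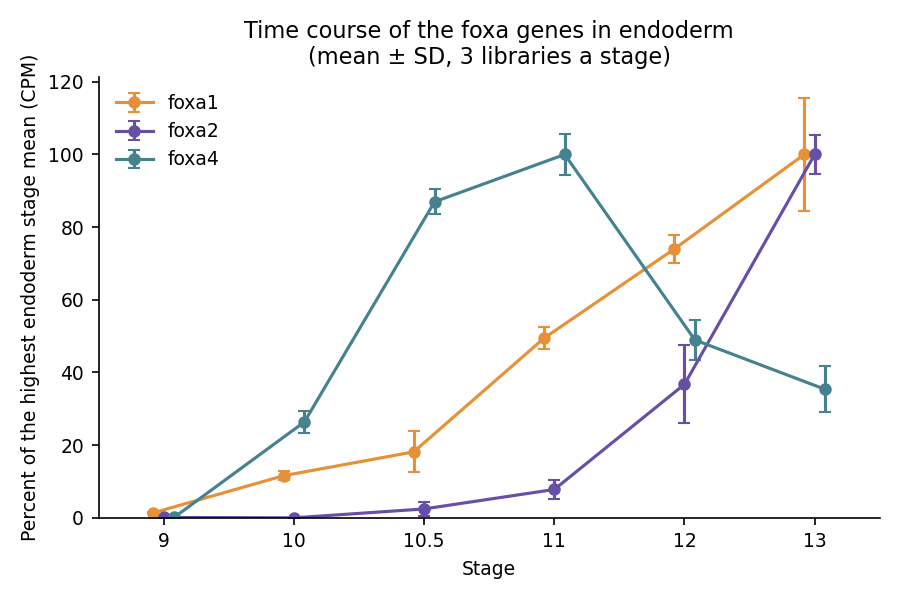
Level of each foxa gene in endoderm explants by stage, as percent of the mean of its highest stage (CPM, mean ± SD, 3 libraries a stage). foxa4 is at 87.0% of its highest mean by stage 10.5 and at 35.4% by stage 13, whereas foxa1 and foxa2 are highest at stage 13 and foxa2 is at 7.81% at stage 11.

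Relative to its own highest stage mean, foxa4 was at 26.4 ± 2.96% at stage 10 and 87.0 ± 3.39% at stage 10.5 (SD, n = 3 each). foxa1 was at 11.6 ± 1.28% and 18.2 ± 5.63% at these stages, and foxa2 at 0% and 2.45 ± 1.86% (SD, n = 3 each). By stage 12 the order had changed, with foxa1 at 73.9 ± 3.87%, foxa2 at 36.8 ± 10.8% and foxa4 at 49.0 ± 5.5% (SD, n = 3 each).

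The makeup of foxa transcripts in endoderm explants therefore shifted with stage, measured in TPM, an abundance scaled to gene length and library. foxa4 made up 97.7 ± 0.218% of the summed foxa TPM at stage 10, 96.4 ± 0.148% at stage 11, 83.8 ± 3.96% at stage 12 and 64.3 ± 3.63% at stage 13 (SD, n = 3 each). foxa2 made up 0.918 ± 0.305% at stage 11 and 24.9 ± 0.838% at stage 13, and foxa1 2.71 ± 0.207% and 10.7 ± 2.87% (SD, n = 3 each). The summed level was 1617 ± 134 TPM at stage 11 and 835 ± 109 TPM at stage 13 (SD, n = 3 each), so foxa4 remained the most abundant member at every stage from 10 to 13. In order of TPM at stage 13, foxa4 was at 539 ± 91.4, foxa2 at 208 ± 25.9 and foxa1 at 88.0 ± 15.3 TPM (SD, n = 3 each). In CPM foxa1 stood above foxa2 in these libraries, at 115 to 158 against 98.4 to 110 CPM. The order of foxa1 and foxa2, in level and in share, thus depended on the scale, whereas foxa4 was highest on either. TPM per CPM of foxa2 ran from 1.27 to 4.03 over the endoderm libraries with at least 20 counts of it.

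Endoderm explants were then set against each of the other lineages at every stage. Over epidermal explants, 14 of the 18 values (3 genes and 6 stages) were called higher and none lower, beside 0.0813, 2.79, 4.81, 6.43, 12.6 and 18.2% of all genes tested that were called higher at these stages in order from 9 to 13. Over ventral mesoderm 13 of 18 were called higher, beside 0, 0.518, 3.20, 7.22, 12.2 and 15.5% of all genes. Over neural explants 13 of 18 were called higher, beside 1.25, 2.27, 6.08, 5.75, 10.5 and 5.91% of all genes. The 3 comparisons share the same endoderm libraries. No member was called at stage 9 in any of them.

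**Figure D3:**
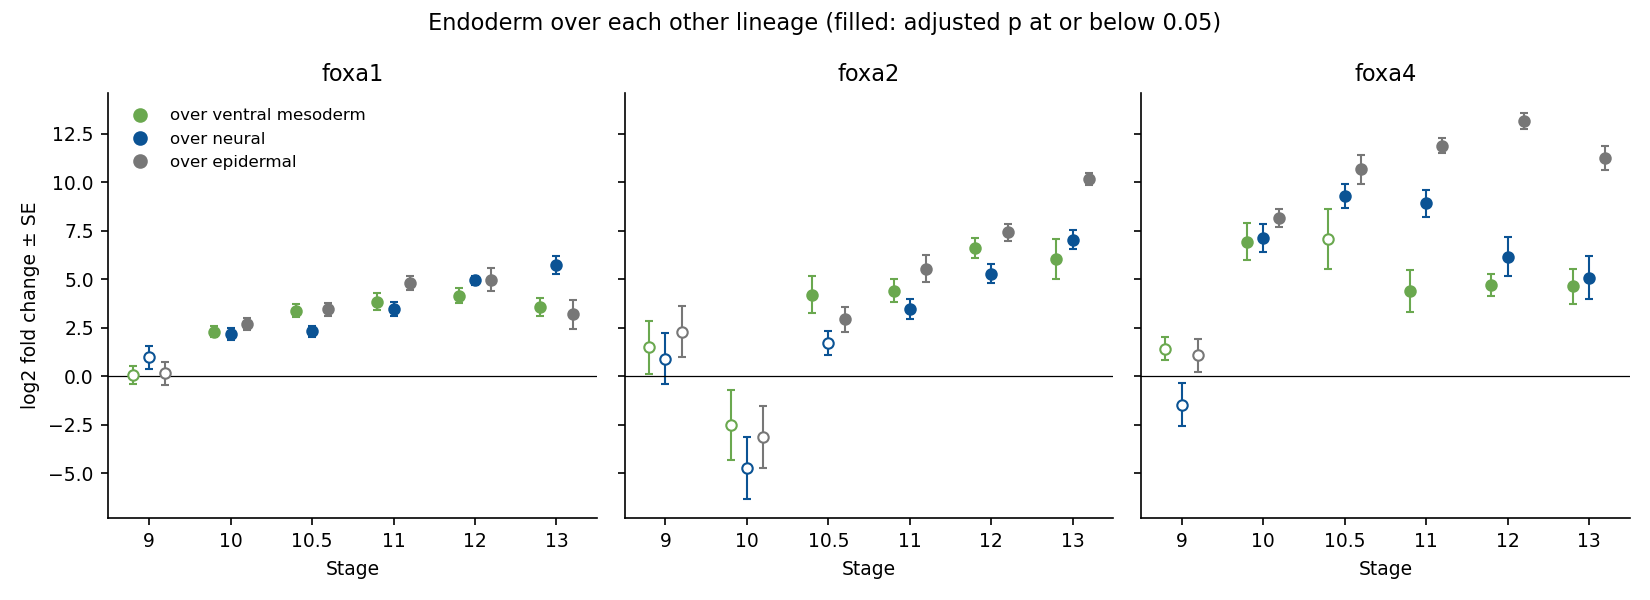
Log2 fold change of endoderm over ventral mesoderm, neural and epidermal explants for each foxa gene by stage, with its standard error. Filled points have an edgeR adjusted p at or below 0.05. For foxa4 the fold over epidermal explants is highest at stage 12 (13.17) while the folds over ventral mesoderm and neural explants are smaller there than at stage 10.5, and for foxa2 the folds are highest at stage 13 or 12.

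Over epidermal explants foxa4 had the largest differences of the 3 genes from stage 10 on. At stage 12 it had 15910, 15303 and 12244 counts in endoderm explants, against 0, 2 and 2 counts in epidermal explants, or 13.17 on the log2 scale (standard error 0.41, edgeR adjusted p = 1.8e-07). The log2 fold changes over epidermal explants at stages 10, 10.5, 11 and 13 were 8.15, 10.66, 11.89 and 11.24, all called. Counting error alone leaves the pooled stage 12 ratio between 4234 and 39790 (exact 95% interval), because so few epidermal reads were found. Such intervals cover counting error only.

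foxa4 was also present in ventral mesoderm, and its difference there was smaller from stage 11 on. The log2 fold change was 6.92 at stage 10 (standard error 0.95, edgeR adjusted p = 0.047) and 4.40 at stage 11 (standard error 1.09, edgeR adjusted p = 0.041), 4.69 at stage 12 and 4.63 at stage 13. At stage 10.5 the log2 fold change of 7.06 did not pass (edgeR adjusted p = 0.067), beside a ventral mesoderm group of 0.180, 28.4 and 3.79 CPM against 1588, 1526 and 1469 CPM in endoderm. The stage 10 call of foxa4 was kept only in the fit without ventral mesoderm replicate 2 (edgeR adjusted p = 1.4e-05 against up to 0.19 in the others), and the stage 11 call only without ventral mesoderm replicate 1 or 5 (lowest edgeR adjusted p = 0.027, highest of the others 0.098). The stage 13 call was lost without endoderm replicate 1 or ventral mesoderm replicate 2 (edgeR adjusted p up to 0.052).

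Over neural explants the log2 fold change of foxa4 was 9.31 at stage 10.5 (standard error 0.62), 8.90 at stage 11, 6.14 at stage 12 and 5.08 at stage 13 (standard error 1.1, edgeR adjusted p = 0.026). At stage 13 this call was lost (edgeR adjusted p up to 0.091) without any of the 3 endoderm libraries or without neural replicate 3. The foxa4 levels of all 3 endoderm libraries at stage 13 were at least 9.48 times the highest library of the other lineages, neural replicate 2.

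foxa1 was called over each of the 3 other lineages at every stage from 10 to 13. Over epidermal explants its log2 fold changes were 2.68, 3.45, 4.80, 4.98 and 3.19 at stages 10, 10.5, 11, 12 and 13. The last of these had a standard error of 0.75 (edgeR adjusted p = 0.011) and rested on a spread epidermal group. foxa1 had 115, 158 and 144 CPM in endoderm explants at stage 13, against 29.4, 4.49 and 4.46 CPM in epidermal explants. Without epidermal replicate 1 the log2 fold change was 4.87 (standard error 0.24, edgeR adjusted p = 2.8e-06). The stage 13 call did not hold in every alternative, with adjusted p values up to 0.11 (edgeR, DESeq2 or limma).

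Over ventral mesoderm foxa1 differed by log2 fold changes of 2.30, 3.38, 3.85, 4.15 and 3.56 at stages 10 to 13, of which the first was lost without endoderm replicate 2 or 3 (edgeR adjusted p up to 0.058). Over neural explants its difference was larger at each later stage, with log2 fold changes of 2.16, 2.32, 3.45, 4.94 and 5.72 (standard error 0.47 and edgeR adjusted p = 0.00043 at stage 13). At stage 13 foxa1 was at 139 ± 21.6 CPM in endoderm and 2.93 ± 1.84 CPM in neural explants (SD, n = 3 each).

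foxa2 was not called in any comparison before stage 10.5. At stage 10, its 0 counts in endoderm explants stood against 2 in ventral mesoderm, 9 in neural and 3 in epidermal explants over 3 libraries each, so that only the neural group was above the floor and foxa2 was at least 3.2-fold lower in endoderm than in neural explants there (edgeR adjusted p = 0.15). At stage 10.5 it had 23, 24 and 79 counts in endoderm explants, against 6, 5 and 6 in epidermal explants, or 2.94 on the log2 scale (standard error 0.64, edgeR adjusted p = 0.027). This call did not hold without endoderm replicate 3 or epidermal replicate 2 or 3 (edgeR adjusted p up to 0.091).

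The stage 10.5 call of foxa2 over ventral mesoderm (log2 fold change 4.21, edgeR adjusted p = 0.038) was lost in each of the 6 fits without 1 library (edgeR adjusted p of 0.055 to 0.14). Over neural explants, where foxa2 had 15, 7 and 13 counts, the difference of 1.70 did not pass (edgeR adjusted p = 0.11). From stage 11 on all comparisons of foxa2 were called, and at stage 13 the log2 fold changes were 10.15 (standard error 0.32) over epidermal, 7.04 (standard error 0.48) over neural and 6.06 (standard error 1.03) over ventral mesoderm explants, at edgeR adjusted p values of 7.8e-07, 0.00024 and 0.0077. Not every alternative kept the calls over epidermal explants at stage 11 and over ventral mesoderm at stage 13. Their adjusted p values ran up to 0.059 and 0.051 (edgeR, DESeq2 or limma).

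Whether the change from stage 10.5 to stage 13 differed between lineages was tested as an interaction. The change of foxa2 was larger in endoderm than in epidermal explants by 7.27 on the log2 scale (standard error 0.81, edgeR adjusted p = 9.1e-05) and larger than in neural explants by 5.33 (standard error 0.73, edgeR adjusted p = 0.0018). That of foxa1 was larger in endoderm than in neural explants by 3.40 (standard error 0.49, edgeR adjusted p = 0.0027). These are 1 of 3 genes against epidermal and 2 of 3 against neural explants, beside 16.3 and 4.05% of all genes tested.

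For foxa4 the log2 difference between the changes in endoderm and in neural explants was -4.21, which did not pass without the block (edgeR adjusted p = 0.083) and passed with it (-3.65, edgeR adjusted p = 0.010) or without neural replicate 1 of stage 13 (edgeR adjusted p = 0.0097). Against ventral mesoderm no member passed (0 of 3, beside 12.6% of all genes, and 0 of 3 at an unadjusted p under 0.05 or with DESeq2), with edgeR adjusted p values of 0.85 for foxa1, 0.57 for foxa2 and 0.39 for foxa4. For foxa1 against epidermal explants the interaction was -0.26 (edgeR adjusted p = 0.91), but without epidermal replicate 1 of stage 13 it was 1.46 (edgeR adjusted p = 0.028).

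Outside endoderm, foxa4 was the member that reached the highest levels, in ventral mesoderm and in neural explants, and its replicates differed widely. It was not the highest at every stage. In neural explants foxa1 had the higher mean at stages 10, 10.5 and 11, at 3.45, 5.05 and 7.02 CPM, against 3.29, 2.46 and 4.15 CPM of foxa4. In ventral mesoderm at stage 11 foxa4 had 184, 1416, 2490, 3068 and 103 counts, or 9.60, 91.6, 138, 151 and 5.003 CPM, in replicates 1 to 5. Replicates 2, 3 and 4 were high, and replicates 1 and 5 were low. At stage 12 it was at 12.5, 28.8 and 54.8 CPM, against 0, 0.138 and 0.107 CPM in epidermal explants, or 8.48 on the log2 scale (standard error 0.82, edgeR adjusted p = 0.014).

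This was the 1 call of a foxa gene among 18 values of ventral mesoderm over epidermal explants, beside 0.00508, 0.0152, 0.0102, 0.0406, 0.315 and 0.996% of all genes called higher at stages 9 to 13. The foxa4 call was lost without ventral mesoderm replicate 2 or epidermal replicate 3 (edgeR adjusted p up to 0.051). At stage 11 and stage 13 the log2 fold changes of foxa4 were 7.48 and 6.61, at edgeR adjusted p values of 0.17 and 0.052. The stage 13 value passed without ventral mesoderm replicate 1 (7.12, edgeR adjusted p = 0.0043).

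Other markers moved with foxa4 among the ventral mesoderm libraries. At stage 11 the summed level of 24 mesendoderm transcription factors was 681, 2620, 3318, 3986 and 917 CPM in replicates 1 to 5, high in the same 3 libraries as foxa4. Of the 8 endoderm markers the sum was 169, 292, 319, 447 and 214 CPM in these libraries, of which 1 marker was at 0 in replicates 1 and 4. The 7 dorsal mesoderm and muscle markers summed to 108, 99.4, 116, 139 and 123 CPM, nearly alike. At stage 13, where foxa4 was at 3.53, 19.5 and 45.9 CPM in ventral mesoderm, the endoderm markers summed to 224, 890 and 1130 CPM and 7 epidermal markers to 12784, 9645 and 7135 CPM. The part of these in the foxa4 values was not tested.

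In neural explants foxa4 was at 0.156, 11.1 and 7.92 CPM at stage 9 and was highest at the last stages. The other lineages held foxa4 at stage 9 too, at 0.093 to 2.04 CPM in epidermal and 0.531 to 1.45 CPM in ventral mesoderm explants. Neural over epidermal explants was not called at that stage. Neural explants held 5.11, 33.3 and 4.11 CPM of foxa4 at stage 12. At stage 13 they held 1.15, 52.0 and 9.77 CPM, against 0, 0.126 and 0.558 CPM in epidermal explants. Replicate 2 was the highest at both stages. Over epidermal explants the log2 fold changes were 7.03 at stage 12 (standard error 1.17, edgeR adjusted p = 0.0081) and 6.14 at stage 13 (standard error 1.44, edgeR adjusted p = 0.045).

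These were the 2 calls among 18 values of neural over epidermal explants, beside 0.00508, 0.0356, 0.137, 1.3, 7.46 and 1.90% of all genes called higher at stages 9 to 13. The stage 13 call of foxa4 was kept only in the fit without neural replicate 1 (6.68, edgeR adjusted p = 0.0059) and lost in the other 5 fits (edgeR adjusted p up to 0.19). At stage 11 the log2 fold change was 2.95 (edgeR adjusted p = 0.079), and it passed without neural replicate 1 (edgeR adjusted p = 0.035).

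Beside these values, the neural libraries differed in dorsal mesoderm and muscle markers, which summed to 73.8, 339 and 83.2 CPM in replicates 1 to 3 at stage 12 and to 65.2, 354 and 78.7 CPM at stage 13. Among them, actc1, a muscle actin, was at 0.745, 205 and 24.9 CPM at stage 13. A notochord homeobox gene listed as not, noto, was at 8.33, 69.3 and 36.2 CPM. Both were named because they moved with foxa4, and the others of the 7 markers are not given singly. Untreated epidermal explants held noto too, at 69.4 ± 44.9 TPM at stage 13 (SD, n = 3), so its level was not particular to neural replicate 2. The endoderm markers summed to 383, 1650 and 1305 CPM at stage 13 in the same order, and the 4 multiciliated cell markers to 8.20, 229 and 112 CPM. Of the 7 dorsal mesoderm and muscle markers 1 was at 0 in replicates 1 and 3 of stage 13 and none in replicate 2. Replicate 2 was thus the highest library for foxa4 and for these sums, and their part in the foxa4 values was not tested. foxa4 was lowest in replicate 1 of the neural lineage at 5 of 6 stages.

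**Figure D4:**
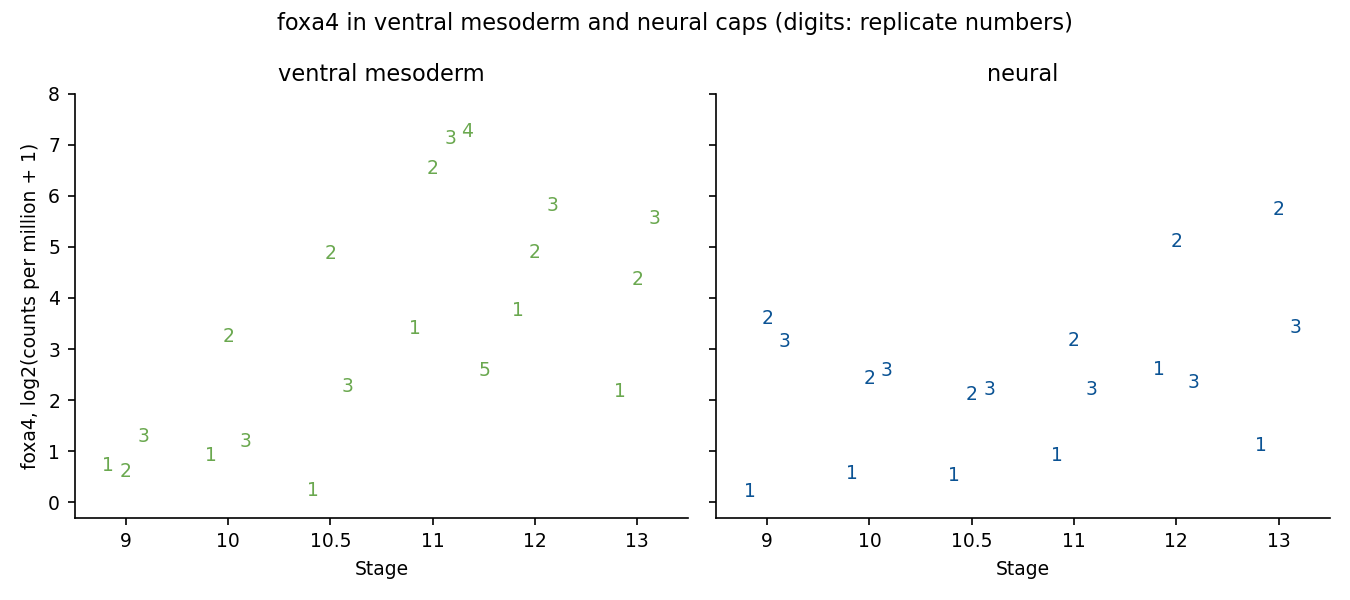
foxa4 in each ventral mesoderm and neural library, as log2(CPM + 1), by stage, with the replicate number as the symbol. Replicate 2 stands highest in neural explants at stages 12 and 13, and in ventral mesoderm at stage 11 replicates 2, 3 and 4 stand above replicates 1 and 5.

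Between ventral mesoderm and neural explants none of 18 values of the foxa genes was called (edgeR, with 5 at an unadjusted p under 0.05 and 2 called by DESeq2), beside 0.198, 0.132, 1.08, 10.4, 21.2 and 3.68% of all genes called in either direction at stages 9 to 13. The widest gap was foxa4 at stage 11, at 79.1 ± 69.2 CPM in ventral mesoderm (SD, n = 5) and 4.15 ± 3.55 CPM in neural explants (SD, n = 3), or 4.5 on the log2 scale (standard error 1.48, edgeR adjusted p = 0.11). It passed without ventral mesoderm replicate 5 (edgeR adjusted p = 0.048). At stage 13 the ranges of foxa4 overlapped, 3.53 to 45.9 CPM in ventral mesoderm and 1.15 to 52.0 CPM in neural explants. At stage 12 the foxa4 difference of 1.43 passed only without neural replicate 2 (3.01, edgeR adjusted p = 0.021).

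foxa1 was detected at low levels in all lineages. In ventral mesoderm it was at 4.85, 9.74 and 17.95 CPM at stage 13, in neural explants at 1.29, 4.93 and 2.59 CPM, and in epidermal explants at 29.4, 4.49 and 4.46 CPM. The order of the means at stage 13 was endoderm, epidermal, ventral mesoderm and neural, and the ranges of epidermal and ventral mesoderm explants, and of ventral mesoderm and neural explants, overlapped. Endoderm alone stood apart from its neighbour. At stage 11 neural explants were at 3.12, 8.43 and 9.52 CPM, against 3.15, 2.78 and 1.31 CPM in epidermal explants (log2 fold change 1.32, edgeR adjusted p = 0.19).

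The epidermal library with 610 counts of foxa1 at stage 13, replicate 1, stood apart from replicates 2 and 3 with 71 and 80 counts. In the same library the 7 epidermal markers summed to 21270 CPM, against 10199 and 11576 CPM in the other 2, and tp63, a transcription factor of the basal epidermis, was at 147 against 30.7 and 33.5 CPM. Not every epidermal marker was spread, with grhl3 at 581 ± 18.5 and dlx3 at 376 ± 34.6 TPM in this group (SD, n = 3 each). The epidermal sum already ranged from 408 to 1466 CPM at stage 9, with a median of 527 CPM. The 4 multiciliated cell markers summed to 1118, 1069 and 1036 CPM in replicates 1 to 3 of stage 13. Single ones varied more, with mcidas at 317 ± 103, foxj1 at 310.2 ± 73.6 and ccno at 278 ± 10.8 TPM (SD, n = 3 each). The part of any of these markers in the foxa1 value was not tested.

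foxa2 stayed at the edge of detection outside endoderm. It had at most 7 counts in any epidermal library, at most 29 in any neural library and at most 69 in any ventral mesoderm library. In neural explants at stage 12 it had 7, 29 and 10 counts against 2, 5 and 3 in epidermal explants (log2 fold change 2.12, edgeR adjusted p = 0.11). In ventral mesoderm at stage 13 it had 0, 18 and 69 counts against 1, 2 and 1 in epidermal explants (log2 fold change 4.05, edgeR adjusted p = 0.17), and this passed without ventral mesoderm replicate 1 (edgeR adjusted p = 0.018). Within both of these groups the library with the most foxa2, neural replicate 2 and ventral mesoderm replicate 3, was also the one with the most foxa4.

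Between successive stages outside endoderm no foxa step was called by edgeR, 0 of 15 in each lineage, with 0, 2 and 2 at an unadjusted p under 0.05 in ventral mesoderm, neural and epidermal explants and 0, 1 and 1 called by DESeq2. Of all genes tested, 1.19, 0, 0, 1.25 and 4.19% were called at the 5 steps in ventral mesoderm, 3.69, 2.04, 0, 0 and 0% in neural and 2.79, 0, 0, 0 and 0% in epidermal explants. No share over all genes was computed with the replicate block. With it, 2, 3 and 2 foxa steps were called in ventral mesoderm, neural and epidermal explants. They were foxa1 to stages 12 (0.74, edgeR adjusted p = 0.023) and 13 (1.04, edgeR adjusted p = 0.0018) in ventral mesoderm, and foxa1 to stages 10 (1.95, edgeR adjusted p = 0.00046) and 12 (-0.70, edgeR adjusted p = 0.032) and foxa4 to stage 12 (1.64, edgeR adjusted p = 7.8e-11) in neural explants. In epidermal explants they were foxa1 to stage 13 (2.04, edgeR adjusted p = 0.00015) and foxa2 to stage 10.5 (2.49, edgeR adjusted p = 0.049).

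A mean of 10 TPM, a minimum that the study applied to transcription factors in part of its work, was reached in 5 of 12 pairs of gene and lineage. foxa4 reached it at stage 10 in endoderm, stage 11 in ventral mesoderm and stage 12 in neural explants, foxa1 at stage 10 in endoderm and foxa2 at stage 11 in endoderm. No member reached it in epidermal explants. At 30 TPM, the minimum it applied to the timing of mesendoderm genes, the onset was stage 10 for foxa4, 11 for foxa1 and 12 for foxa2 in endoderm and stage 11 for foxa4 in ventral mesoderm, and foxa4 in neural explants did not reach it. The neural onset at 10 TPM of foxa4 lay between stages 9 and 13 when 1 library was left out, so it depended on single libraries.

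The homeologs of foxa4 were used differently in the lineages. In endoderm explants both were present in nearly equal parts from stage 10.5 on. L took 49.8 ± 1.18% of the L and S counts at stage 10.5, 51.2 ± 1.26% at stage 11 and 50.9 ± 2.6% at stage 13 (SD, n = 3 each). At stage 9 foxa4.S had 1, 4 and 1 counts in endoderm explants, against 31, 39 and 52 counts of foxa4.L. At stage 10, when foxa4 as a whole had risen, foxa4.S had 2826, 3812 and 3299 counts, and L took 57.2 ± 0.630% (SD, n = 3).

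In neural explants, by contrast, foxa4 was nearly all L at the later stages too. At stage 9, in libraries with at least 20 counts, L took 90.7 to 98.1% in endoderm and 89.4 to 98.4% in neural explants. Epidermal explants were also nearly all L, at 100% at stage 9 and 95.3 to 100% at stage 10, with too few counts from stage 11 on. L took 92.9 to 96.6% of foxa4 counts in the 3 neural libraries at stage 12, against 47.8 to 59.3% in the 3 endoderm libraries of that stage. The 2 ranges did not overlap, although 3 against 3 libraries cannot go below p = 0.1 in an exact permutation test. In neural replicate 2 of stage 13, the library with the most foxa4 outside endoderm, 697 counts of foxa4 held 59 of S. Neural replicate 1 of stage 13 went the other way, with 6 counts of L and 11 of S, too few for a share. foxa4.S had 0 counts in all neural and all epidermal libraries at stage 10.5, against 13170, 12730 and 12122 counts in endoderm, at least 11610-fold higher than neural and at least 14350-fold higher than epidermal explants (floor of 3 counts over the group).

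**Figure D5:**
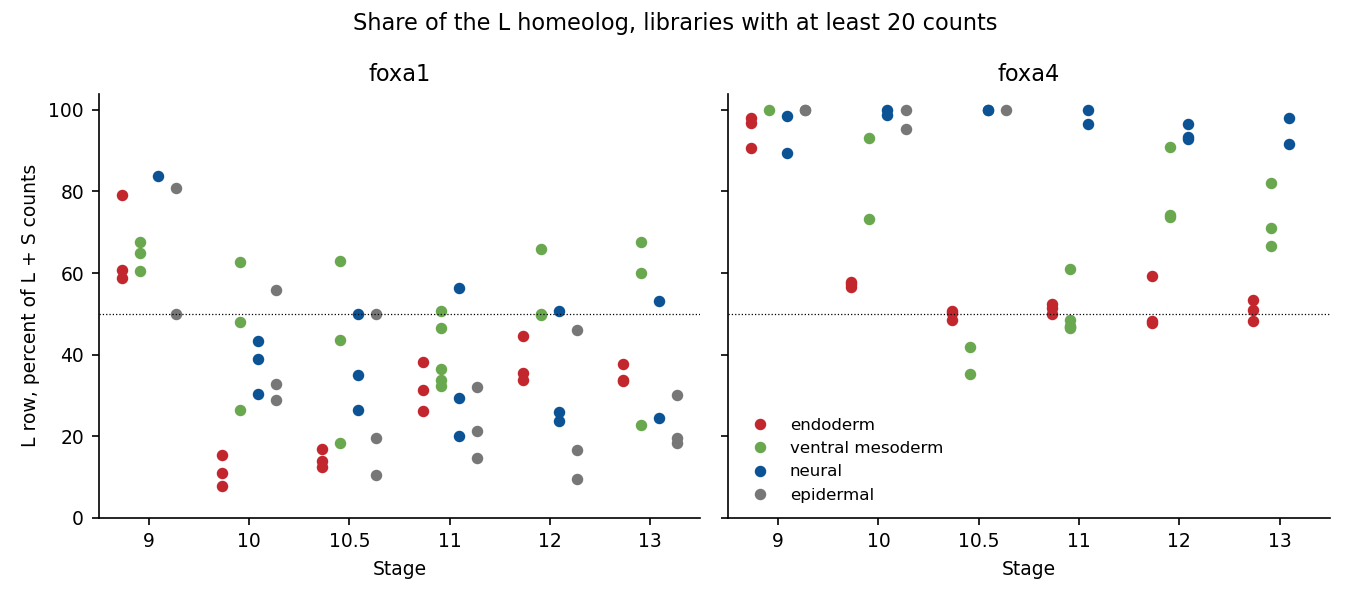
Share of the L homeolog among the L and S counts of foxa1 and foxa4, by stage, in libraries with at least 20 counts of the pair. For foxa4, endoderm libraries lie near equal shares from stage 10 on and neural libraries near all L, and for foxa1 the endoderm libraries lie lowest at stage 10.

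In ventral mesoderm the share of L in foxa4 changed with stage. At stage 9 all 33 foxa4 counts of replicate 3 were L, and at stage 10 L took 73.2% of 190 counts in replicate 2 and 93.1% of 29 counts in replicate 3, the libraries with at least 20 counts. L took 38.5 ± 4.72% of foxa4 counts at stage 10.5 (SD, n = 2 such libraries), 49.95 ± 6.16% at stage 11 (SD, n = 5), 79.7 ± 9.75% at stage 12 and 73.3 ± 7.94% at stage 13 (SD, n = 3 each). All 3 libraries of stage 12, at 73.8 to 91.0% L, were above the 5 libraries of stage 11, at 46.6 to 60.9%. With L and S apart, foxa4.S was called over neural explants at stage 11 (log2 fold change 8.89, standard error 2.02, edgeR adjusted p = 0.034), which foxa4 as a sum was not.

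For foxa1 the S homeolog came up first in endoderm explants. foxa1.S had 214, 243 and 254 counts at stage 10, against 14, 9 and 11 at stage 9, while foxa1.L had 18, 44 and 31 counts at stage 10, against 20, 34 and 17 at stage 9. L therefore took 66.2 ± 11.2% of foxa1 counts at stage 9 and 11.3 ± 3.81% at stage 10 (SD, n = 3 each), without overlap. L followed later, with 50, 55 and 71 counts at stage 10.5 and 452, 405 and 264 counts at stage 11, and it held 31.9 ± 6.03% of the counts at stage 11, then 37.9 ± 5.76% and 35.0 ± 2.31% at stages 12 and 13 (SD, n = 3 each). The share in TPM was higher, 38.7% at stage 11 and 41.7% at stage 13, with the same order of stages 10, 10.5 and 11.

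With homeologs apart, endoderm over epidermal explants called foxa1.S and both foxa4 homeologs at 5 of 6 stages and foxa1.L and foxa2.L at 4 of 6, beside 0.0109, 2.51, 4.33, 6.43, 12.2 and 17.9% of the 27424 entries called higher at stages 9 to 13. foxa1.S was called from stage 10 (log2 fold change 3.20, standard error 0.38, edgeR adjusted p = 0.0038) and foxa1.L from stage 10.5 (2.72, standard error 0.49, edgeR adjusted p = 0.014). In the other lineages the pooled L share of foxa1, on few counts, was also lower at stage 10 than at stage 9. It was 78.4% at stage 9 and 38.8% at stage 10 in neural explants. The values were 67.3 and 37.6% in epidermal and 64.2 and 45.6% in ventral mesoderm explants, where single libraries of the 2 stages overlapped. Shares of single libraries varied widely in these lineages, for instance between 22.8 and 67.6% L in ventral mesoderm at stage 13. Reads that fit both homeologs may have been left out or assigned to either by the counting, so small differences in share are uncertain.

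The genes whose profile over the 24 group means was most like that of each member were ranked by Pearson's r of log2(TPM + 1), as a description only. For foxa4 they were lhx1, a LIM homeobox gene of the organizer (r = 0.964), xenf (0.959), mixer, a homeobox gene of endoderm (0.958), LOC108705994 (0.956) and clcf1, a cytokine (0.945). All 5 were highest at stage 11 in endoderm, as foxa4 was, lhx1 at 697 ± 141 TPM and mixer at 2834 ± 828 TPM (SD, n = 3 each).

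For foxa1 the first was hao1, a peroxisomal oxidase (r = 0.951, 233 ± 45.4 TPM in endoderm at stage 13, against at most 1.69 ± 1.34 TPM in another group; SD, n = 3 each), followed by LOC108705598 (0.949), LOC108718887 (0.944), LOC108701722 (0.943) and the kinase gene nek6 (0.938). For foxa2 they were a2ml1, a protease inhibitor related to alpha-2-macroglobulin (0.948), LOC108708347 (0.947), the mitochondrial creatine kinase gene ckmt1b (0.944), Xelaev18031903m (0.940) and the glutathione peroxidase gene gpx3 (0.940), all highest in endoderm at stage 13. The members themselves correlated at r = 0.876 for foxa1 with foxa2, 0.816 for foxa1 with foxa4 and 0.624 for foxa2 with foxa4. The 24 means share libraries within a group and time courses within a lineage. They include the TPM of foxa2 at low counts, which were irregular, such as 11.45 TPM in neural replicate 3 of stage 10.5.

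The foxa genes did not move alone in endoderm explants. The lists described here share some genes, such as gsc, lhx1, otx2, cer1 and fst. Of 24 other mesendoderm transcription factors, 20 were called higher than in epidermal explants at stage 10 and none lower, and at stage 13, 22 were called higher and 1 lower, with a median log2 fold change of 5.23 beside 0.10 over all genes. Of all genes tested, 2.79% were called higher and 2.58% lower at stage 10, and 18.2% higher and 16.5% lower at stage 13, which is the background of every list count here. At stage 13 mixer was at 924 ± 29.8 TPM against 0.327 ± 0.270 TPM, and sox17a, an endoderm determinant, at 938 ± 117 against 1.02 ± 0.680 TPM in epidermal explants (SD, n = 3 each). foxh1, a Smad partner of the forkhead family, was the 1 called lower, at 25.6 ± 6.28 against 35.5 ± 2.24 TPM (SD, n = 3 each).

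Of the genes of the organizer, notochord and floor plate, where foxa4 and foxa2 are known, 12 of 17 were called higher and 1 lower at stage 13. cer1, a secreted antagonist of nodal, BMP and Wnt, was at 2375 ± 759 TPM in endoderm explants, against a value listed at 0 in each epidermal library. chrd, a BMP antagonist, was at 292 ± 256 TPM against a value listed at 0 in each epidermal library, and admp, a BMP ligand of the organizer, at 72.7 ± 57.3 TPM against 0.0800 ± 0.139 TPM (SD, n = 3 each), so that both varied nearly as much as their mean among the endoderm libraries. noto was lower in endoderm, at 17.1 ± 8.06 against 69.4 ± 44.9 TPM (SD, n = 3 each), and shh, a floor plate and notochord signal, did not pass (log2 fold change 2.25, edgeR adjusted p = 0.12). Among 9 tested nodal ligands and antagonists 5 were called higher and 1 lower, with nodal2 at 11.0 ± 6.82 against 0.137 ± 0.187 TPM (SD, n = 3 each) and fst, an activin antagonist, at 19.6 ± 25.2 against 0.173 ± 0.300 TPM (SD, n = 3 each).

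Of 43 other forkhead genes tested, 14 were called higher and 14 lower in endoderm than in epidermal explants at stage 13, with a median log2 fold change of -0.04. The ones that were higher were led by foxc2 and foxc1, known from mesoderm, and foxd4l1.1, an early neural factor, at 42.5 ± 38.2, 20.0 ± 16.2 and 29.8 ± 45.9 TPM against 0.247 ± 0.194, 0.577 ± 0.156 and 0.263 ± 0.135 TPM (SD, n = 3 each). The ones that were lower were led by foxi1, a factor of ionocytes, foxj1.2 and foxi4.1, at 0.460 ± 0.476, 0.360 ± 0.207 and 4.71 ± 1.15 TPM against 112 ± 12.1, 62.9 ± 13.3 and 167 ± 30.5 TPM (SD, n = 3 each). The other forkhead genes were thus called in both directions, whereas foxa1, foxa2 and foxa4 were all called higher at that stage.

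Markers of other cell types in endoderm explants went both ways at stage 13. All 8 endoderm markers were called higher, among them sox17b.1 at 703 ± 90.5 against 2.09 ± 1.55 TPM. All 7 epidermal markers and 3 of 4 multiciliated cell markers were called lower, such as grhl3 at 1.35 ± 0.446 against 581 ± 18.5 TPM, dlx3 at 2.90 ± 0.921 against 376 ± 34.6 TPM, tp63 at 0.247 ± 0.0462 against 76.8 ± 74.2 TPM, foxj1 at 2.72 ± 2.56 against 310.2 ± 73.6 TPM, mcidas at 0.813 ± 0.188 against 317 ± 103 TPM and ccno at 4.49 ± 1.41 against 278 ± 10.8 TPM (SD, n = 3 each). Of 8 neural markers 4 were higher and 2 lower, with otx2 at 103 ± 66.2 against 5.36 ± 2.91 TPM, zic1 at 38.4 ± 17.8 against 2.6 ± 1.73 TPM and sox3 at 27.7 ± 12.7 against 128 ± 73.1 TPM (SD, n = 3 each). Of 9 ventral and pan-mesoderm markers 4 were higher and 1 lower, with msgn1 at 26.9 ± 14.7 against 0.473 ± 0.180 TPM, wnt8a at 42.0 ± 16.4 against 2.03 ± 1.58 TPM, evx1 at 15.3 ± 13.7 against 3.26 ± 2.32 TPM and msx1 at 85.0 ± 23.0 against 203 ± 43.6 TPM (SD, n = 3 each). Of 7 dorsal mesoderm and muscle markers 3 were higher, among them gsc, an organizer homeobox gene, at 27.3 ± 27.2 against 0.620 ± 0.485 TPM (SD, n = 3 each), and 1 was lower, noto. Endoderm explants thus held transcripts of some of the listed dorsal mesoderm and muscle markers beside those of endoderm, while noto was lower. How much of the foxa4 and foxa2 levels came from cells of either kind was not tested.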

How the data were processed

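The authors used STAR 2.6.0 on genome build v9.2 of X. laevis, and the deposited count of reads per gene is not normalized. TPM made with RSEM were deposited too (version not given in the sources used here), scaled to gene length and library. Groups and replicate numbers were taken from the sample labels, and p-values measure the spread between these libraries. CPM were computed here from the counts and the library totals. L and S entries were summed by symbol and also analysed apart. A gene entered the tests when 1 library or more held 15 counts of it. Each comparison was fitted only on its own libraries, scaled by TMM, with the quasi-likelihood test of edgeR 4.0.16 (robust, under R 4.3.3). P-values were adjusted over all genes by Benjamini-Hochberg, and 0.05 was the threshold. The standard error was obtained by dividing the size of the log2 fold change by the root of its F value. The test was tested on simulated data first. A floor of 3 counts was used where a group had none.

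Replicate numbers were checked as the correlation of deviations from group means. Within a lineage, same-numbered libraries of successive stages correlated above 0.1 in every pair in 19 of 20 comparisons (0.081 to 0.867), and between lineages in 5 of 36, where the block changed no foxa call. Per the methods, each day's embryos came from the same frog. Numbers were therefore taken to pair libraries within a lineage and in those 5 comparisons, and blocked values are given where they change a call. The study describes the replicates of the lineages as independent experiments, so the pairing between lineages is uncertain. Shares over all genes were computed only without the block.

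The TPM columns of stage 11 ventral mesoderm, from replicate 2 to replicate 5, resemble count columns with other numbers or none. Levels of these single libraries are therefore described by counts, whereas the onset, the correlations and the limma alternative used the TPM columns. foxa2 TPM were irregular at low counts, and its levels are read from counts there. The onsets, the correlations and the limma alternative did use these TPM. foxred genes were left out of the other forkhead genes, since they are not forkhead genes.

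Members and lists were chosen with earlier results of these data known. Named are the members, the 5 genes most like each, up to 3 genes per list and direction with the largest log2 fold change at stage 13 in endoderm over epidermal explants among those called and at 10 TPM or more, and markers beside a member that moved with them. Some genes that this rule names are not reported here. shh was named after its values were seen. Alternatives were DESeq2 1.42.0, DESeq2-type size factors, no filter, the replicate block, L and S apart, limma 3.58.1 on log2(TPM + 1), a single fit of all libraries, ventral mesoderm replicates 1 to 3, each replicate left out, and other TPM minimums, pseudocounts and correlation measures. Python 3.11.15 with numpy 2.4.6, pandas 2.3.3 and scipy 1.17.1 was used.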

Additional observations from a re-analysis of the deposited data

Results flagged for a closer look

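The change of foxa2 between stages 10.5 and 13 differed between lineages by the test of the interaction, by 7.27 on the log2 scale in endoderm over epidermal explants and by 5.33 in endoderm over neural explants. The change of foxa1 over the same stages differed by 3.40 in endoderm over neural explants. Among the 5 ventral mesoderm libraries of stage 11, no foxa value stood far enough from the others to be marked as a single library apart. This check cannot mark a split into several high and several low libraries, as foxa4 showed there. No other group was checked.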

How the results depend on the processing

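Directions of called values of foxa1, foxa2 and foxa4 were kept under every alternative run. Values that were not called changed sign in some fits, and 1 of these passed the threshold after turning, the interaction of foxa1 in endoderm over epidermal explants, -0.26 with all libraries and 1.46 without epidermal replicate 1 of stage 13 (-0.70 to 1.46 over all libraries left out in turn). DESeq2-type size factors changed no call of a member. The count of called foxa values of neural over epidermal explants (2, both higher) became 4 with DESeq2, of which 3 were higher and 1 lower. This count was 4 in the single fit of all libraries, 1 with limma on TPM or with L and S apart, and 3 with the replicate block. That of ventral mesoderm over epidermal explants (1) became 3 with DESeq2, 3 with the replicate block, 4 in the single fit and 2 with L and S apart. That of ventral mesoderm over neural explants (0) became 2 with DESeq2 and in the single fit, and 1 without the filter, with the replicate block or with L and S apart. The single fit lost the endoderm steps of foxa1 to stages 11 and 12, foxa2 to 13 and foxa4 to 10.5 and 12. Successive stages in endoderm (9) thus gave 4 in the single fit. In neural explants (0) they gave 1 with DESeq2 or L and S apart and 3 with the block, in ventral mesoderm (0) 2 with the block, and in epidermal explants (0) 1 with DESeq2, 1 in the single fit and 2 with the block. The interaction of endoderm over ventral mesoderm (0) gave 1 with limma. Where not stated, the cause was not tested.

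Between lineages every pair correlated above 0.1 for endoderm with neural explants at stages 9, 10 and 10.5 and for neural with epidermal explants at stages 12 and 13, where the replicate block changed no foxa call. The numbers pair no libraries in the other comparisons between lineages, where the block lowered the count for endoderm over ventral mesoderm to 8 of 18, against 13 without it, and changed the other endoderm counts by at most 1. Within lineages the blocked calls are given beside the results, and the block changed no other call.

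For the counts that follow, only the values fitted with the left-out library were replaced, and all others kept their call. The ranges are narrow in part for that reason and do not add up the calls lost with different libraries. Leaving out 1 library gave 13 to 14 called values in endoderm over epidermal, 11 to 13 over ventral mesoderm and 12 to 13 over neural explants. It gave 1 to 3 in neural over epidermal, 0 to 3 in ventral mesoderm over epidermal and 0 to 1 in ventral mesoderm over neural explants. It gave 7 to 10 steps in endoderm and 0 in each other lineage, and 1 to 2, 2 to 3 and 0 interactions over epidermal, neural and ventral mesoderm explants. The onset of foxa4 lay at stages 9 to 13 in neural explants and 10.5 to 11 in ventral mesoderm, and in endoderm the onsets of all 3 genes did not move. With a minimum of 5 TPM the onset was stage 10.5 for foxa2 in endoderm, 9 for foxa4 in neural explants and 10.5 for foxa4 in ventral mesoderm, and with 30 TPM stage 11 for foxa1 and 12 for foxa2 in endoderm.

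In TPM the L share of foxa1 in endoderm was 18.3, 38.7, 44.5 and 41.7% at stages 10.5, 11, 12 and 13, and that of foxa4 at stage 9 was 85.8%. Of the 5 genes most like each member, Spearman's rho kept 0 for foxa1, 0 for foxa2 and 2 for foxa4. Single libraries as points kept 3 for foxa1 and 2 for foxa2, a pseudocount of 0.1 kept 2 for foxa2 and a filter at 1 TPM kept 1 for foxa2, so these neighbours depend on the measure. With replicates 1 to 3 alone, foxa4 in endoderm over ventral mesoderm at stage 11 did not pass (edgeR adjusted p = 0.060). Chosen after seeing the data were the single libraries left out of levels, onsets and shares, the level of foxa4 in ventral mesoderm at stage 11 without the TPM column of replicate 4 (65.7 ± 68.5 TPM), and the lists under other fits, where the organizer, notochord and floor plate genes called higher at stage 13 numbered 9 to 14 and the other forkhead genes 11 to 16 higher and 10 to 15 lower. Depth limits foxa2 outside endoderm, where single reads decide its level.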
